A study of Rattus norvegicus with 12 samples.

Results

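Chemokines and chemokine receptors were followed in rat pubocaudalis, one of the pelvic floor muscles, after simulated birth injury (SBI, vaginal balloon distention) with or without lactation. The genes were chosen by name, as those of the table whose symbols begin with Ccl, Cxcl, Cx3c, Xcl1, Xcr1, Ccr, Cxcr or Ackr followed by their number. Of 55 such genes, 47 had at least 10 counts summed over the 12 libraries, out of 30206 genes in all, and they comprised 28 ligands, 15 receptors and 4 atypical receptors. The other 8 were Ccl1, Ccl20, Ccl25, Ccl26, Ccl28, Ccr4, Cxcl17 and Cxcr1, which held between 0 and 8 counts each.

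All rats were 3-month-old female Sprague-Dawley rats that underwent SBI on day 20 of gestation. After parturition, pups were removed (1wk SBI and 3wk SBI) or left with the dam (1wk SBI + Lac and 3wk SBI + Lac), and muscle was taken 1 or 3 weeks after SBI. Each of the 4 groups had 6 rats, pooled by 2 into 3 libraries, so every n is a number of pools. No uninjured muscle was among these libraries, and the study calls the pools technical replicates while its sample labels give other rats for each pool.

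Chemokines are small secreted proteins that bind heparan sulfate on vessels and matrix and steer leukocytes through G protein-coupled receptors. Atypical receptors bind chemokines without G protein signaling and remove or transport them. In injured skeletal muscle, chemokines are known for drawing in neutrophils, then monocytes through Ccr2, and later T cells, while Cxcl12 from stromal cells acts on leukocytes, endothelium and muscle progenitors through Cxcr4.

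Total counts ran from 10082734 to 75634391 per library, and 3 counts, the upper limit that a count of 0 allows, corresponded to between 0.0360 and 0.330 normalized CPM (TMM-scaled counts brought to one library size). The 2 shallowest libraries, 3wk SBI replicate 1 and 3wk SBI + Lac replicate 3, had 11 and 15 of the 47 genes at 0, whereas 3wk SBI replicate 3, the deepest, had none. The 3-week values were deposited as estimated counts and the 1-week values as whole counts, so that time and counting cannot be told apart between time points. Skeletal muscle markers were high in each library, with none of 11 at 0 in any, and the leukocyte marker Ptprc was detected throughout.

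Of the 47 genes, 38 had enough counts for testing (21 ligands, 13 receptors and 4 atypical receptors). The 9 that did not were Ccl4, Ccl17, Cxcl1, Cxcl2, Cxcl3, Cxcl6, Xcl1, Ccr8 and Ccr10. A gene could enter through the group in which it was high. A gene was called when its adjusted p in edgeR's quasi-likelihood test was below 0.05 and its absolute log2 fold change above 1.

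At 1 week, most receptors had less RNA in lactating muscle, but no gene of the family was called. The estimate was below 0 for 12 of 13 receptors tested, with a median log2 fold change of -1.12, while ligands were split 13 lower to 8 higher (median -0.48) and atypical receptors 1 lower to 3 higher (median 0.04). The median over all 38 was -0.59, and -0.26 without 1wk SBI replicate 2, against -0.0038 over all 14599 genes tested. A fit on only genes with at least 10 counts in every library kept 17 of the family. Of these, 11 were lower and 6 higher, with a median of -0.21, against -0.0025 over all genes of that fit. edgeR called 0 of 38 genes with both cutoffs (0.253% of all genes) and 0 on adjusted p alone (0.569%). An unadjusted p under 0.05 was reached by 9 genes, 8 lower and 1 higher (18.9% of all genes in either direction), a share near that of the whole table. DESeq2 called 0 on all 12 libraries (0.94% of all genes) and 4 on the 6 libraries compared (1.72%), which were Ccr7, Ccr9, Cxcr3 and Cx3cr1. In 10 genes every lactating library was below every non-lactating one (14.1% of all genes), 7 of them receptors, and in 2 ligands every lactating library was above (14.3%).

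At 3 weeks, 29 of the 38 genes were lower and 9 higher with lactation, and again none was called. The median log2 fold change was -0.81 for receptors, -0.61 for ligands and 0.11 for atypical receptors. Over all 38 it was -0.58, and it was -0.11 without 3wk SBI replicate 3 and -0.98 without 3wk SBI + Lac replicate 2, against -0.019 over all genes. Of the 17 genes with at least 10 counts in every library, 10 were lower and 7 higher. Their median was -0.17, against -0.011 over all genes of that fit. edgeR called 0 of 38 with both cutoffs (0.74% of all genes) and 0 on adjusted p alone (2.54%), and DESeq2 called 0 on all 12 libraries (1.21%) and 0 on the 6 compared (0.926%). An unadjusted p under 0.05 was reached by 6 genes, all lower (21.1% of all genes in either direction). Every lactating library was below every non-lactating one for Ccl9 and Ccl22 only (10.4% of all genes), and no gene of the family lay the other way (11.9%).

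**Figure D1:**
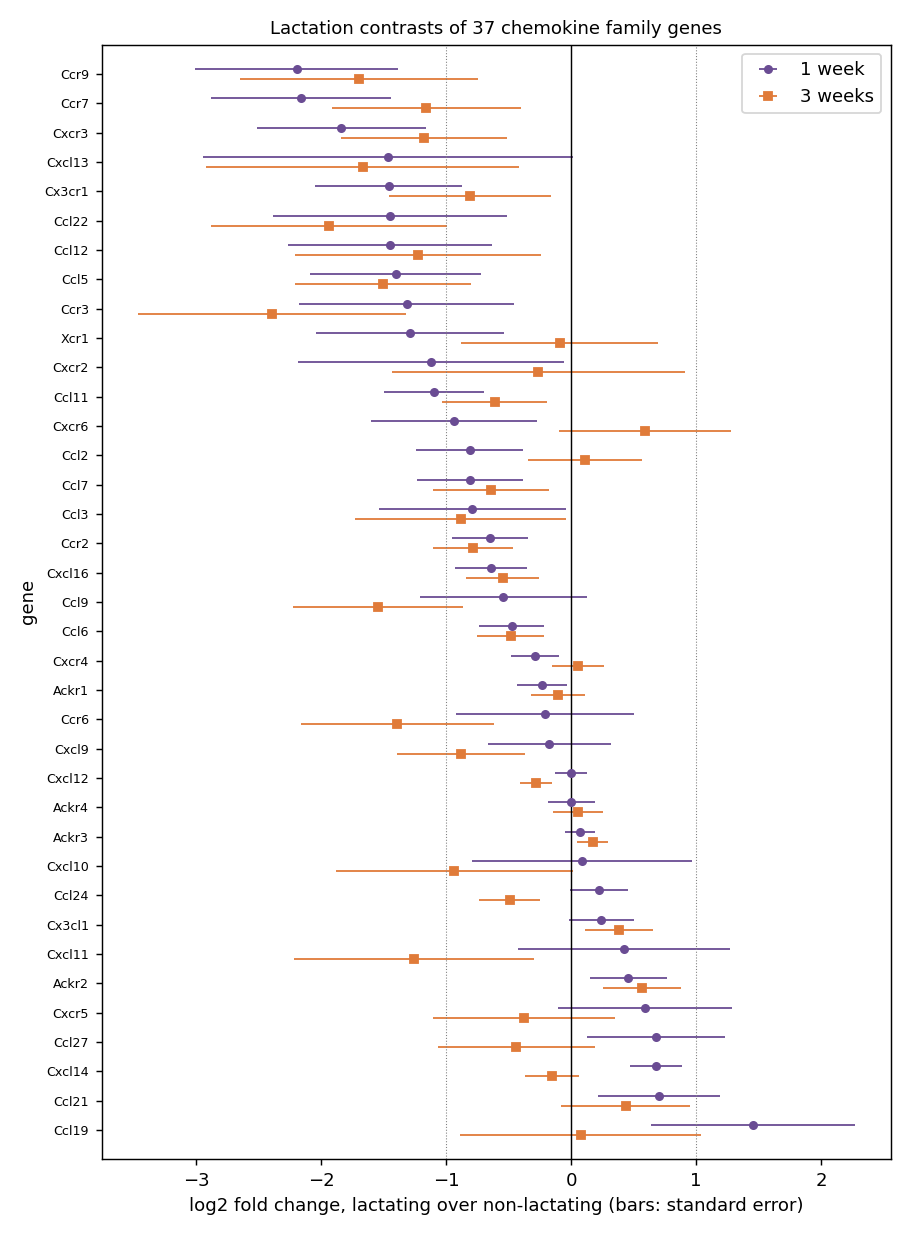
Log2 fold change, lactating over non-lactating, of 37 of the 38 genes tested at 1 week (circles) and 3 weeks (squares), with standard errors as bars and dotted lines at -1 and 1. Most points lie left of 0 at both times, the receptors Ccr9, Ccr7 and Cxcr3 farthest at 1 week and Ccr3 at 3 weeks, with bars that are wide for low-count genes.

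The spread between pools was itself a main feature of these genes, since 1 pool per group was the highest for most of the tested genes. In 1wk SBI, replicate 2 was the highest of the 3 libraries for 30 of 38 genes (78.9%), although it was highest for only 30.9% of all genes tested. In 3wk SBI, replicate 3 was highest for 29 of 38 (76.3%, against 35.6% of all genes), and in 3wk SBI + Lac replicate 2 for 26 of 38 (68.4%, against 29.6%). In 1wk SBI + Lac, replicate 1 was highest for 21 of 38 (55.3%, against 33.3%) and replicate 2 lowest for 27. The 2 pools that stood out at 3 weeks were also the deepest of their groups.

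**Figure D2:**
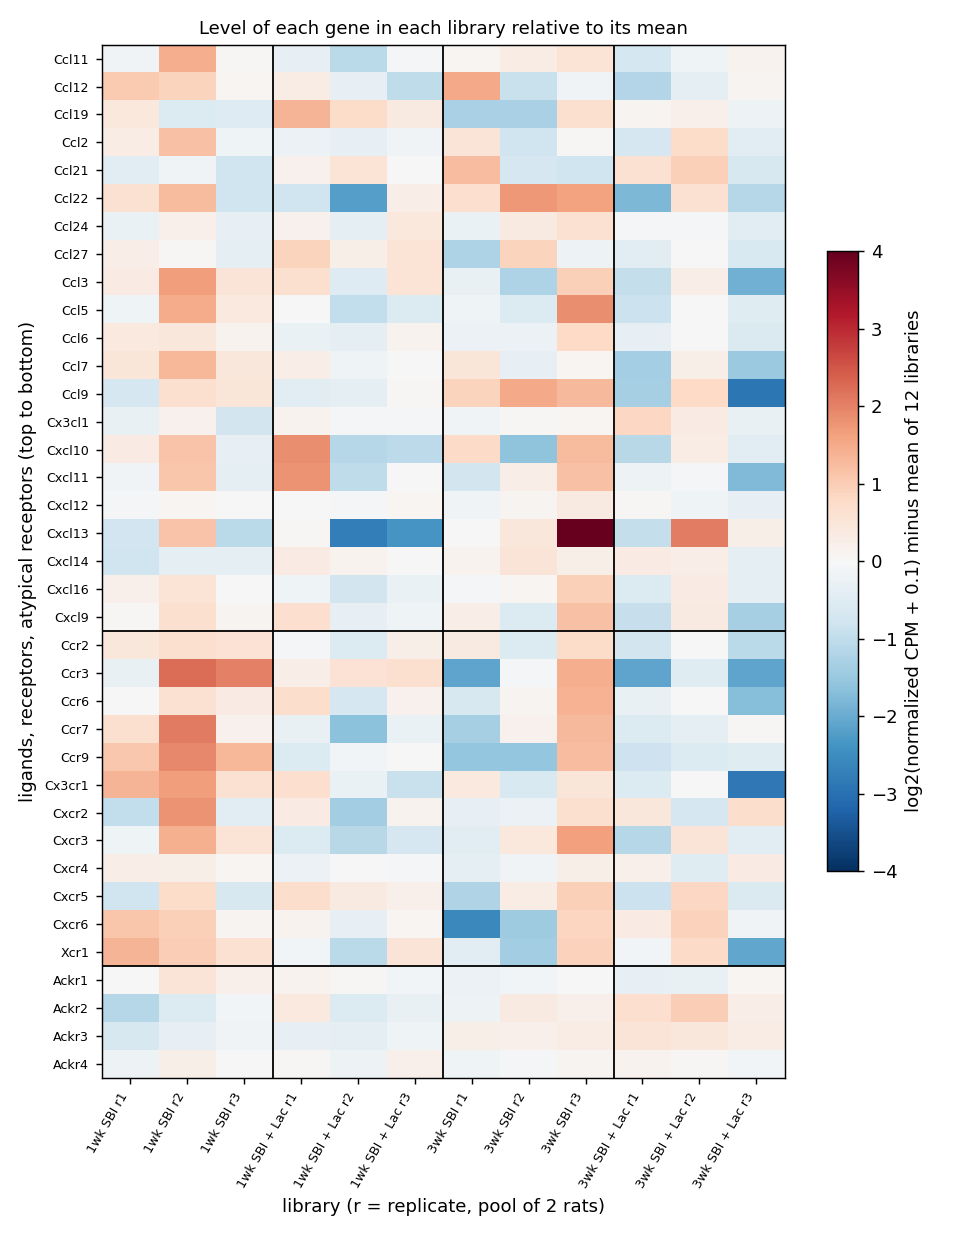
Level of 37 of the 38 tested genes in each library as log2(normalized CPM + 0.1) minus that gene's mean over the 12 libraries, with groups separated by vertical lines and ligands, receptors and atypical receptors by horizontal lines. The columns of 1wk SBI replicate 2 and 3wk SBI replicate 3 are red for most ligands and receptors, while Cxcl12, Cxcr4 and Ackr4 are pale in all columns.

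Except in 1wk SBI + Lac, general leukocyte markers summed highest in the pool that stood out for the family, and their estimates were lower with lactation. In 1wk SBI + Lac their sum was highest in replicate 3, whereas replicate 1 was most often highest for the family. The summed level of 10 general leukocyte markers was 201, 227 and 179 normalized CPM in 1wk SBI against 130, 105 and 144 in 1wk SBI + Lac, and 9 of 9 tested were lower with lactation (median log2 fold change -0.78). At 3 weeks the sums were 127, 138 and 260 in 3wk SBI against 93.3, 135 and 77.3 in 3wk SBI + Lac, again with 9 of 9 lower (median -0.80). None of these markers passed an adjusted p of 0.05 at either time, and Cd52 was at 0 in 9 libraries. Markers of single leukocyte types below 0.05 are named here after their values were seen. The macrophage marker Cd68 fell at 1 week by 0.96 on the log2 scale (edgeR adjusted p = 0.0417) and was called at 3 weeks (-1.08, 0.0150). The study stained sections for the protein of this gene at the earlier time and reports no significant difference with lactation. It also counted CD45+ immune cells in sections at that time. For these it reports a fall to the values of uninjured controls with lactation. Without lactation it reports values significantly above those controls. Also called at 3 weeks were Flt3 of dendritic cells (-1.54, adjusted p = 0.0408), Cd8b of T cells (-2.48, 0.0485) and Spib of B cells (-2.80, 0.0383). Each of these 5 adjusted p rose above 0.05 when any one of 3 to 5 of the 6 libraries was left out, to at most 0.197. In each comparison the marker named was the only one of its list below an adjusted p of 0.05. Those lists had 15 macrophage and monocyte, 8 dendritic cell, 15 T and NK cell and 7 B cell and follicle markers tested. Of all genes, 0.569% were below that adjusted p at 1 week and 2.54% at 3 weeks, where 0.74% were called.

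Lymphocyte markers set the same pools apart. The 16 T and NK cell markers summed to 7.24, 13.8 and 6.54 in 1wk SBI against 5.93, 3.53 and 4.32 in 1wk SBI + Lac, then 6.01, 6.44 and 21.3 in 3wk SBI against 2.80, 9.87 and 1.32 in 3wk SBI + Lac, with 8 of them at 0 in 3wk SBI + Lac replicate 3. The 13 B cell and follicle markers ran from 2.64 to 9.65 in 10 libraries but reached 54.8 in 3wk SBI replicate 3 and 37.4 in 3wk SBI + Lac replicate 2. Ms4a1, which marks B cells, was at 0 in 5 libraries. Macrophage and monocyte markers (15, none at 0) summed to 658 to 735 in 1wk SBI, to 441 to 609 in 1wk SBI + Lac, to 501 to 1082 in 3wk SBI and to 456 to 731 in 3wk SBI + Lac.

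Dendritic cell markers (9) ran from 30.6 to 39.1 in 1wk SBI, from 12.6 to 18.7 in 1wk SBI + Lac, from 17.3 to 32.0 in 3wk SBI but from 8.34 to 18.2 in 3wk SBI + Lac, with Cd207 at 0 in 10 libraries. Neutrophil markers (10, Elane at 0 in all 12) ran from 3.96 to 6.34 in 1wk SBI, from 2.03 to 2.95 in 1wk SBI + Lac, from 1.92 to 6.07 in 3wk SBI and from 1.37 to 2.98 in 3wk SBI + Lac, with 3 of 3 tested lower with lactation at both times (medians -0.78 and -1.14). Skeletal muscle markers ran the other way, from 83217 to 132073 in 1wk SBI, 131939 to 157779 in 1wk SBI + Lac, 128215 to 172445 in 3wk SBI and 188010 to 214123 in 3wk SBI + Lac. Erythroid markers (8, Rhag at 0 in all 12 libraries) were higher with lactation for 4 of 4 tested at both times and summed to 242 to 414 in 1wk SBI but 556 to 780 in 1wk SBI + Lac, and to 97.3 to 183 in 3wk SBI but 132 to 242 in 3wk SBI + Lac. Mammary and milk markers (11, the casein Csn1s1 at 0 in 6 libraries) reached 40.1 and 11.6 in 3wk SBI + Lac replicates 1 and 2 and were at most 3.76 elsewhere. In 3wk SBI + Lac replicate 3 they summed to 0.660, the lowest of the 12 libraries, with 8 of 11 at 0. In whole muscle, fewer leukocytes and less chemokine RNA per cell cannot be told apart, and the part of cell composition in the values reported here was not tested.

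**Figure D3:**
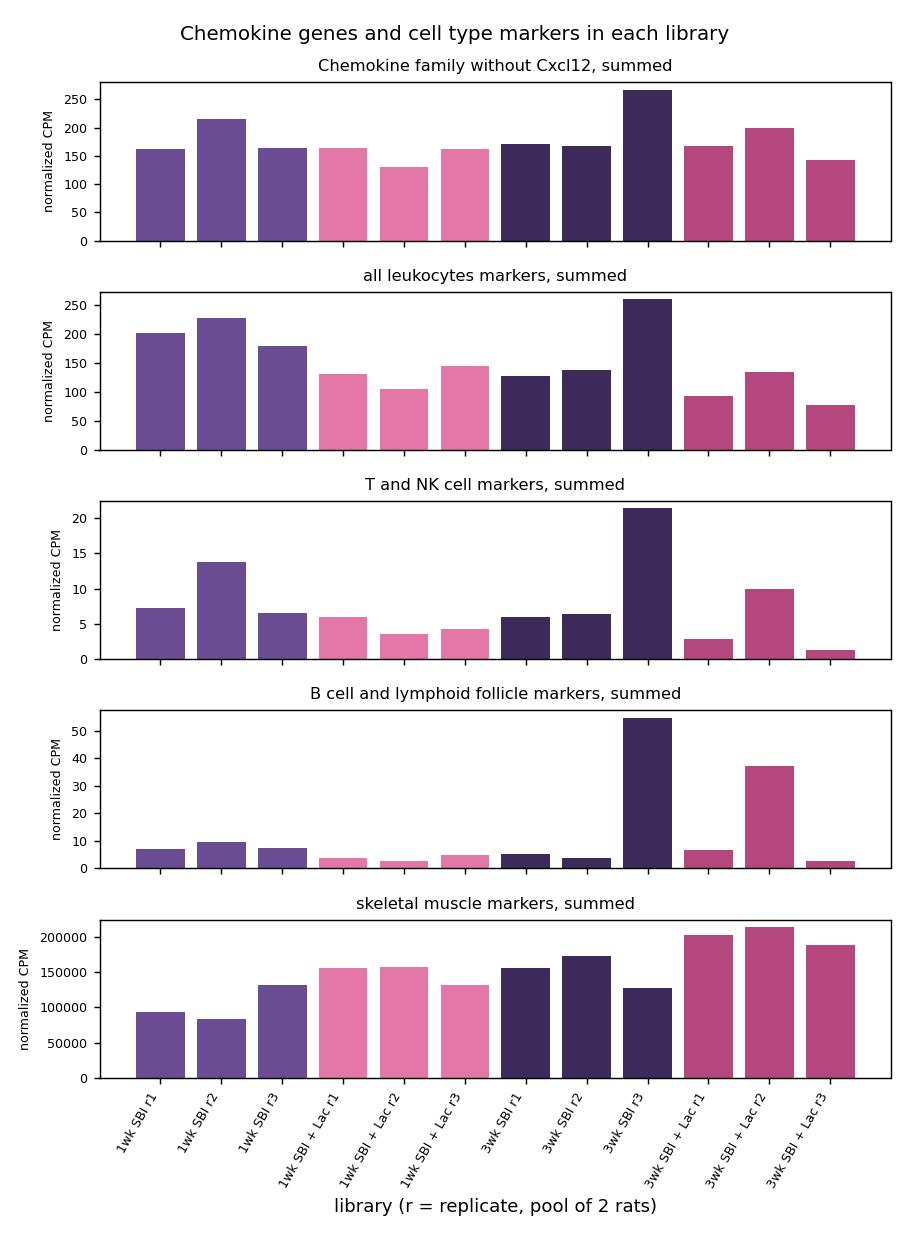
Summed normalized CPM per library of the chemokine family without Cxcl12 (top) and of markers of all leukocytes, T and NK cells, B cells and follicles, and skeletal muscle, each on its own axis from 0. The family sum, T and NK cell and leukocyte bars are highest in 3wk SBI replicate 3, and skeletal muscle is highest in 3wk SBI + Lac replicate 2.

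The monocyte-attracting ligands and their receptor were lower with lactation at 1 week for 4 of 4 genes tested (median log2 fold change -0.81) and for 3 of 4 at 3 weeks (-0.71). Ccr2, which brings blood monocytes into injured tissue, stood at 8.01, 9.29 and 8.79 normalized CPM in 1wk SBI against 5.61, 3.97 and 7.00 in 1wk SBI + Lac. At 3 weeks it was 7.51, 4.02 and 9.82 in 3wk SBI against 3.48, 5.82 and 2.75 in 3wk SBI + Lac. The groups were apart at 1 week and overlapped at 3 weeks. Its log2 fold change was -0.65 (SE 0.30, edgeR adjusted p = 0.264) at 1 week and -0.78 (SE 0.32, adjusted p = 0.179) at 3 weeks.

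Of the Ccr2 ligands, Ccl2 measured 2.24, 4.12 and 1.57 normalized CPM in 1wk SBI against 1.51, 1.39 and 1.62 in 1wk SBI + Lac, then 2.57, 0.991 and 1.87 in 3wk SBI against 1.07, 3.06 and 1.32 in 3wk SBI + Lac. Ccl7 measured 2.02, 3.68 and 1.97 in 1wk SBI against 1.74, 1.25 and 1.39 in 1wk SBI + Lac, then 2.04, 1.11 and 1.51 in 3wk SBI against 0.488, 1.67 and 0.440 in 3wk SBI + Lac. Only Ccl7 at 1 week kept the groups apart, with a log2 fold change of -0.81 (SE 0.42, edgeR adjusted p = 0.310). For Ccl2 the effect was -0.81 at 1 week and 0.11 at 3 weeks, a difference of 0.92 (SE 0.62) that did not pass the test.

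The CC ligands tested that macrophages and T cells are known for making, Ccl3, Ccl5, Ccl6 and Ccl9, were all on the lower side with lactation at both times, and none passed the test. Ccl9, a ligand of Ccr1 made by myeloid cells, measured 0.369, 1.06 and 0.937 normalized CPM in 1wk SBI against 0.459, 0.475 and 0.669 in 1wk SBI + Lac. It measured 1.29, 2.04 and 1.72 in 3wk SBI against 0.195, 1.20 and 0 in 3wk SBI + Lac. The 3-week groups did not overlap, the highest lactating pool being just under the lowest non-lactating one. The 3-week log2 fold change was -1.54 (SE 0.68, edgeR adjusted p = 0.211). Leaving out 3wk SBI + Lac replicate 2, the lactating pool with the most Ccl9, made it -3.58 (adjusted p = 0.0482).

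Ccl5, known from T and NK cells, was at 0.433, 1.55 and 0.679 normalized CPM in 1wk SBI against 0.492, 0.203 and 0.311 in 1wk SBI + Lac, then 0.429, 0.310 and 2.04 in 3wk SBI against 0.228, 0.504 and 0.330 in 3wk SBI + Lac. The 3-week difference rested on 1 pool. Its log2 fold change there was -1.51 (SE 0.71, edgeR adjusted p = 0.236) and 0.04 without 3wk SBI replicate 3. Ccl6, a ligand of Ccr1 in macrophages, was steadier at 1 week. It was at 38.6, 39.8 and 32.4 in 1wk SBI against 24.5, 22.9 and 32.3 in 1wk SBI + Lac. At 3 weeks it was at 24.7, 25.0 and 51.3 in 3wk SBI against 23.5, 29.9 and 19.5 in 3wk SBI + Lac. There the groups overlapped, and only 3wk SBI replicate 3 lay above every lactating library. The log2 fold change of Ccl6 was -0.48 at both 1 week (SE 0.26) and 3 weeks (SE 0.27).

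Among genes of eosinophil and type 2 traffic, 3 of 4 tested were lower with lactation at 1 week and 4 of 4 at 3 weeks. Ccl11 (eotaxin), which attracts eosinophils through Ccr3, measured 3.27, 9.89 and 3.68 normalized CPM in 1wk SBI against 2.82, 1.63 and 3.39 in 1wk SBI + Lac, then 3.75, 4.40 and 5.28 in 3wk SBI against 2.15, 3.15 and 3.96 in 3wk SBI + Lac. Replicate 2 of 1wk SBI was far above every other library. Its 1-week log2 fold change of -1.09 (SE 0.40, edgeR adjusted p = 0.162) was -0.40 without that library.

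Ccr3 measured 0.256, 1.96 and 1.66 normalized CPM in 1wk SBI against 0.426, 0.542 and 0.573 in 1wk SBI + Lac, then 0, 0.310 and 1.08 in 3wk SBI against 0, 0.211 and 0 in 3wk SBI + Lac. Its 3-week log2 fold change of -2.40 (SE 1.07, edgeR adjusted p = 0.221) came from few counts, and the groups overlapped. Ccl22, a dendritic cell ligand of Ccr4, kept the 3-week groups apart, at 0.644, 1.42 and 1.32 in 3wk SBI against 0.0326, 0.602 and 0.110 in 3wk SBI + Lac, with a log2 fold change of -1.94 (SE 0.94, adjusted p = 0.257). Ccl24, a second ligand of Ccr3, was at 7.59, 10.6 and 7.33 in 1wk SBI against 10.4, 6.98 and 12.4 in 1wk SBI + Lac, then 7.62, 11.9 and 14.1 in 3wk SBI against 8.60, 8.80 and 6.71 in 3wk SBI + Lac, with overlap at both times.

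Cxcl9, Cxcl10 and Cxcl11, ligands of Cxcr3 that interferon gamma induces and that attract T cells, had their highest value in the same library of each group. Those libraries also held the highest value for most tested genes of the family, so the shared peak was not particular to these ligands. Their upstream sequences are shown because of that peak, chosen after the values were seen. Whether these sequences have a part in it was not tested. RefSeq windows on GRCr8, from 250 bases before to 50 after the annotated start, were found by symbol for 34 of the 47 genes, and the build of the counts is not given in the sources used here. The 250 bases before the start of Cxcl10 (chr14:15988816-15989065, plus strand) and Cxcl11 (chr14:15973478-15973727, plus strand) follow, 5' to 3', with matches to GGGANNNTCC (kappaB-like), GAAANNGAAA (ISRE-like) or TTCNNNGAA (GAS-like) on either strand in capitals.
Cxcl10: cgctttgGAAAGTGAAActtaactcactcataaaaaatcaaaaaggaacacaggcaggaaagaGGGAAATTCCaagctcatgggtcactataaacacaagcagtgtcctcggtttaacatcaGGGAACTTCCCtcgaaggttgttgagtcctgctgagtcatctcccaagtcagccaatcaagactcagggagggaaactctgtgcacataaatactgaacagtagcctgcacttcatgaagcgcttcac
Cxcl11: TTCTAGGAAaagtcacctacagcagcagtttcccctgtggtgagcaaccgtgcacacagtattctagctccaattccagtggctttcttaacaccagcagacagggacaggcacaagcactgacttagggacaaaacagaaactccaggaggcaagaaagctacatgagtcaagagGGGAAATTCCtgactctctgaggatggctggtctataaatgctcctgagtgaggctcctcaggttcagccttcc
Cxcl10 had an ISRE-like match and 3 kappaB-like matches, of which 2 overlapped on opposite strands, and Cxcl11 had 1 kappaB-like and 1 GAS-like match. Cxcl9 had 1 GAS-like match, 32 to 40 bases after its start, and none of the other motifs in the window. The kappaB-like motif was in 8 of the 34 windows (23.5%) and in 4.09% of 33469 promoters, the ISRE-like motif in 2 (5.88%) and 3.92%, and the GAS-like motif in 6 (17.6%) and 8.87%. Such matches describe letters and do not show that a factor binds there.

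Cxcl9 measured 9.68, 14.7 and 10.1 normalized CPM in 1wk SBI against 14.9, 7.42 and 8.27 in 1wk SBI + Lac, then 11.3, 6.32 and 21.3 in 3wk SBI against 4.85, 12.0 and 3.63 in 3wk SBI + Lac. Cxcl10 measured 1.92, 3.51 and 1.19 in 1wk SBI against 5.80, 0.644 and 0.693 in 1wk SBI + Lac, then 2.68, 0.433 and 3.84 in 3wk SBI against 0.651, 1.90 and 1.10 in 3wk SBI + Lac. Cxcl11 measured 0.208, 0.641 and 0.164 in 1wk SBI against 1.08, 0.0678 and 0.239 in 1wk SBI + Lac, then 0.107, 0.310 and 0.672 in 3wk SBI against 0.195, 0.228 and 0 in 3wk SBI + Lac. In 1wk SBI + Lac, replicate 1 was above every non-lactating library of that week for all 3 ligands while the other pools were low, and the lactation effects at 1 week were small against their errors, at -0.17 (SE 0.49), 0.09 (SE 0.88) and 0.42 (SE 0.85) on the log2 scale. At 3 weeks they were -0.88 (SE 0.51), -0.93 (SE 0.95) and -1.26 (SE 0.96), none past the test.

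Their receptor Cxcr3, carried by effector T cells, had no 1wk SBI + Lac library above the non-lactating ones. It measured 0.417, 1.47 and 0.750 normalized CPM in 1wk SBI against 0.295, 0.170 and 0.263 in 1wk SBI + Lac, with no overlap. At 3 weeks it was at 0.322, 0.681 and 1.69 in 3wk SBI against 0.163, 0.732 and 0.330 in 3wk SBI + Lac. The log2 fold change was -1.84 (SE 0.68, edgeR adjusted p = 0.161) at 1 week and -1.18 (SE 0.66, adjusted p = 0.326) at 3 weeks.

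Ccr7, which guides dendritic cells and naive T cells to lymph nodes, was at 0.721, 2.13 and 0.492 normalized CPM in 1wk SBI against 0.328, 0.0678 and 0.334 in 1wk SBI + Lac, so that the groups did not overlap. It was at 0.107, 0.495 and 1.20 in 3wk SBI against 0.260, 0.309 and 0.440 in 3wk SBI + Lac, where they did. Its log2 fold change was -2.16 (SE 0.72, edgeR adjusted p = 0.128) at 1 week, or -1.29 without 1wk SBI replicate 2, and -1.16 (SE 0.75) at 3 weeks.

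The Ccr7 ligands Ccl21 and Ccl19 lay on the higher side with lactation at 1 week, without passing the test. Ccl21, made by lymphatic endothelium, was at 2.58, 3.17 and 1.97 normalized CPM in 1wk SBI against 3.93, 5.22 and 3.51 in 1wk SBI + Lac, the lactating libraries all being higher, but its log2 fold change of 0.70 (SE 0.49, edgeR adjusted p = 0.453) did not pass the test. At 3 weeks Ccl21 was at 8.37, 2.17 and 2.00 in 3wk SBI against 5.37, 6.98 and 2.20 in 3wk SBI + Lac. The 6 lymphatic endothelium markers summed to between 41.7 and 60.4 over the 12 libraries. Ccl19 had a log2 fold change of 1.46 (SE 0.81) at 1 week and 0.08 (SE 0.96) at 3 weeks from levels of at most 0.525 normalized CPM.

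Cxcl13, the ligand that gathers B cells into follicles, differed widely between pools. It measured 0.721, 2.99 and 0.562 normalized CPM in 1wk SBI against 1.34, 0.102 and 0.167 in 1wk SBI + Lac, then 1.29, 1.80 and 21.6 in 3wk SBI against 0.619, 5.56 and 1.54 in 3wk SBI + Lac. The pools with the most Cxcl13 at 3 weeks were those with the high B cell markers given above. Its receptor Cxcr5 was also highest there, at 0.828 in 3wk SBI replicate 3 and 0.748 in 3wk SBI + Lac replicate 2. The lactation effect on Cxcl13 was -1.47 (SE 1.48) at 1 week and -1.67 (SE 1.25) at 3 weeks on the log2 scale, neither past the test.

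Ccr9, a homing receptor of gut T cells, measured 0.513, 1.01 and 0.633 normalized CPM in 1wk SBI against 0.0984, 0.170 and 0.191 in 1wk SBI + Lac. At 3 weeks it was at 0, 0 and 0.588 in 3wk SBI against 0.0651, 0.0976 and 0.110 in 3wk SBI + Lac. The 1-week groups were well apart, and the 3-week values of 3wk SBI came from a single pool. The 1-week log2 fold change was -2.19 (SE 0.81, edgeR adjusted p = 0.163). Its ligand Ccl25 was among the genes with under 10 counts in all.

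Cx3cr1, the fractalkine receptor of monocytes and macrophages, was at 1.78, 2.21 and 1.01 normalized CPM in 1wk SBI against 1.05, 0.509 and 0.287 in 1wk SBI + Lac, then 0.858, 0.372 and 0.912 in 3wk SBI against 0.391, 0.618 and 0 in 3wk SBI + Lac. The 1-week groups overlapped narrowly, with a log2 fold change of -1.46 (SE 0.59, edgeR adjusted p = 0.193). Its ligand Cx3cl1, of endothelium and other tissue cells, differed little, at 0.24 (SE 0.26) at 1 week and 0.38 (SE 0.27) at 3 weeks. Xcr1, a receptor of cross-presenting dendritic cells, was at 0.977, 0.742 and 0.539 in 1wk SBI against 0.295, 0.102 and 0.502 in 1wk SBI + Lac, with a log2 fold change of -1.29 (SE 0.75) at 1 week and -0.09 (SE 0.79) at 3 weeks. The study named Ccr7, Ccr9, Cxcr3 and Cx3cr1 from these same samples, so their direction here is not independent evidence.

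Cxcl16, a ligand held on macrophages, was at 8.27, 10.5 and 6.98 normalized CPM in 1wk SBI against 6.33, 4.27 and 5.90 in 1wk SBI + Lac, then 6.76, 7.49 and 13.7 in 3wk SBI against 4.85, 9.03 and 5.50 in 3wk SBI + Lac. The 1-week groups did not overlap, with a log2 fold change of -0.64 (SE 0.29, edgeR adjusted p = 0.246). Its receptor Cxcr6, of tissue T cells, was at 1.19, 1.06 and 0.539 in 1wk SBI against 0.557, 0.373 and 0.526 in 1wk SBI + Lac, then 0, 0.124 and 0.984 in 3wk SBI against 0.651, 1.04 and 0.440 in 3wk SBI + Lac.

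Neutrophil-attracting ligands were near the counting limit. Cxcl1, Cxcl2, Cxcl3 and Cxcl6 held between 14 and 101 counts over all 12 libraries and were not tested. Cxcl2 was at 0 in 8 libraries and Cxcl3 in 9. Cxcr2, their receptor, had a log2 fold change of -1.12 (SE 1.07) at 1 week and -0.26 (SE 1.17) at 3 weeks from levels of at most 0.810 normalized CPM.

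Cxcl14, which is made by stromal and epithelial cells and whose receptor is unsettled, had the smallest p of the family at 1 week and lay on the higher side. It measured 2.76, 3.85 and 3.70 normalized CPM in 1wk SBI against 6.20, 5.39 and 4.95 in 1wk SBI + Lac. At 3 weeks it was at 5.36, 7.00 and 5.77 in 3wk SBI against 6.19, 5.97 and 3.74 in 3wk SBI + Lac. All lactating libraries were higher at 1 week, whereas the groups overlapped at 3 weeks. The 11 fibroblast markers, as one stromal source, summed to 7481 to 10879 in 1wk SBI and to 4342 to 8177 in 1wk SBI + Lac. At 3 weeks they summed to 3520 to 8150 in 3wk SBI and to 2131 to 3087 in 3wk SBI + Lac. The largest values in these sums were of collagens, with Col3a1 reaching 4729, Col1a1 2771 and Col1a2 1805 normalized CPM. Over the 12 libraries Pdgfra stayed between 55.6 and 98.3 and Dcn between 414 and 624. With lactation at 1 week, 9 of the 11 markers were lower (median log2 fold change -0.35). The part of fibroblasts in the Cxcl14 values was not tested.

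The log2 fold change of Cxcl14 was 0.68 (SE 0.21, edgeR adjusted p = 0.106) at 1 week and -0.15 (SE 0.21, adjusted p = 0.722) at 3 weeks. DESeq2 on all 12 libraries gave 0.68 with an adjusted p of 0.0385 at 1 week, under the fold cutoff. The difference between the lactation effects at 3 weeks and 1 week was tested for all genes. With both cutoffs edgeR called 0 of the 38 (0.00685% of all genes), and DESeq2 on all 12 libraries called 0 of 47 (0.055%). In edgeR, Cxcl14 (-0.83, SE 0.30) and Ccl24 (-0.72, SE 0.34) were the 2 with an unadjusted p under 0.05 (4.42% of all genes). Every edgeR adjusted p of the family was 0.999. The family's lactation effects were thus not shown to differ between the time points.

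Cxcl12, the stromal ligand of Cxcr4 and Ackr3, was among the most even genes. It measured 128, 140 and 134 normalized CPM in 1wk SBI against 134, 128 and 138 in 1wk SBI + Lac, then 119, 143 and 170 in 3wk SBI against 136, 117 and 104 in 3wk SBI + Lac. The 1-week log2 fold change was -0.00 with an SE of 0.13, and at 3 weeks it was -0.28 (SE 0.13, edgeR adjusted p = 0.233). Cxcr4 measured 10.9, 10.7 and 9.56 in 1wk SBI against 7.77, 9.22 and 8.58 in 1wk SBI + Lac, then 6.87, 8.30 and 10.7 in 3wk SBI against 10.4, 6.42 and 11.3 in 3wk SBI + Lac. Its 1-week groups were apart by little, with a log2 fold change of -0.29 (SE 0.19, adjusted p = 0.435).

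**Figure D4:**
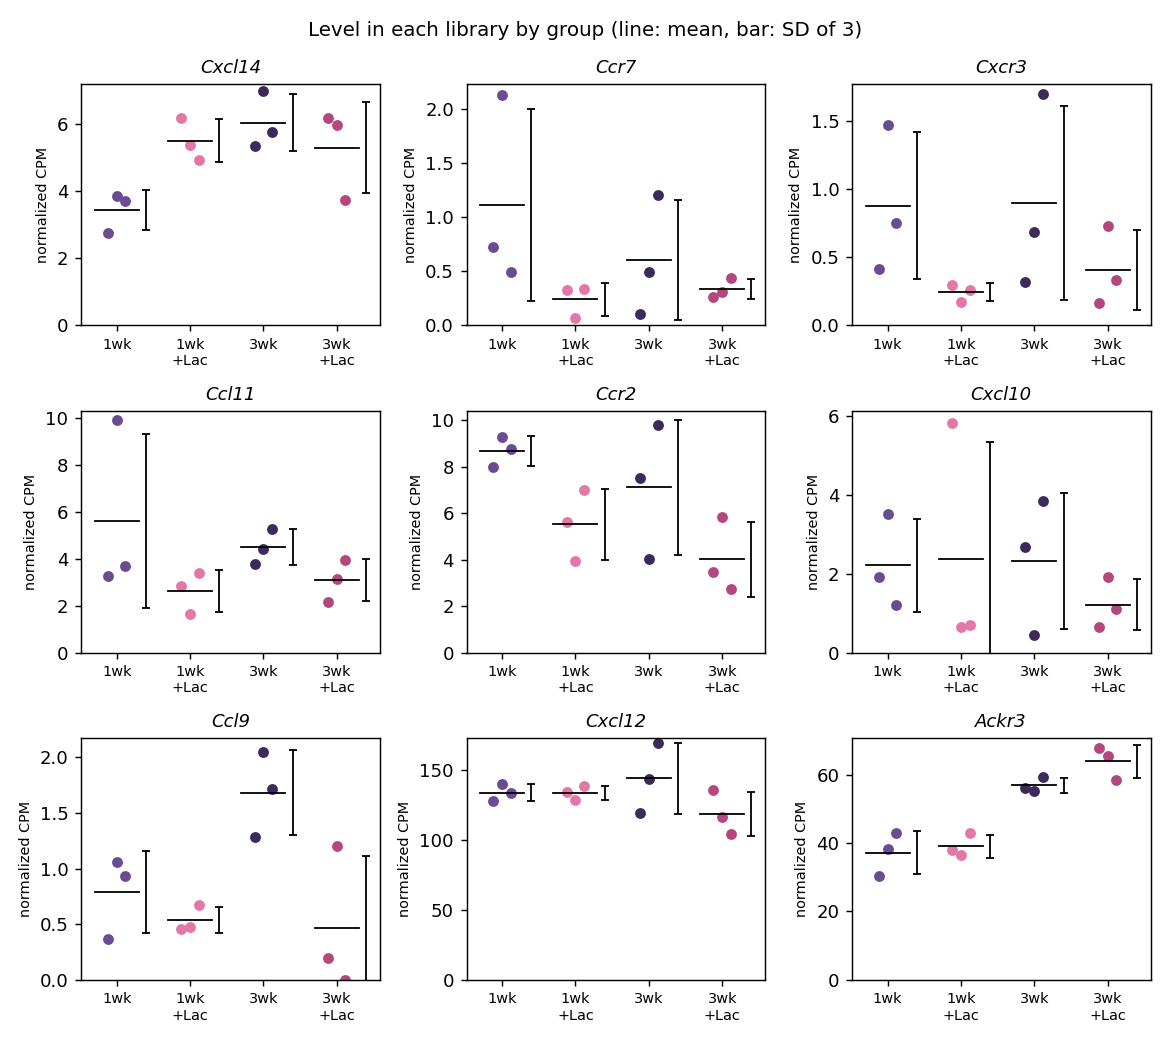
Normalized CPM of 9 genes in each library (points) by group, with the mean of 3 pools as a line and the SD as a bar beside it, cut at 0 for Ccl9. Cxcl14 is higher in all 1wk SBI + Lac than 1wk SBI pools, Ccr7, Cxcr3 and Ccr2 are lower, and Ackr3 is higher in all 3-week than 1-week pools.

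Between 1 and 3 weeks, Ackr3, the atypical receptor that takes up Cxcl12, rose in both groups. It was at 30.4, 38.3 and 42.9 normalized CPM in 1wk SBI against 38.1, 36.4 and 42.9 in 1wk SBI + Lac, then 56.0, 55.2 and 59.3 in 3wk SBI against 67.8, 65.5 and 58.5 in 3wk SBI + Lac. Every 3-week library was above every 1-week library. The log2 fold change was 0.61 (SE 0.12, edgeR adjusted p = 0.0128) without lactation and 0.71 (SE 0.12, adjusted p = 0.00938) with lactation, both under the fold cutoff. The lactation effect on Ackr3 was 0.07 (SE 0.12) at 1 week and 0.17 (SE 0.12) at 3 weeks, with no call. The 9 blood endothelium markers summed to between 304 and 426 over the 12 libraries.

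The rise of Ackr3 depended on single libraries for its place below an adjusted p of 0.05. Without lactation it was 0.0684 without 1wk SBI replicate 1, 0.0518 without 3wk SBI replicate 2 and 0.0859 with only the libraries compared in edgeR. With lactation it was 0.0611 without 3wk SBI + Lac replicate 1 and 0.0593 without replicate 2. Cxcl14 rose without lactation, by 0.82 (SE 0.21, adjusted p = 0.0368), and its adjusted p was 0.193 without 1wk SBI replicate 1, 0.0793 without replicate 2, 0.0599 without 3wk SBI replicate 1 and 0.167 without replicate 2. Because the 3-week values are estimated counts, the part of counting in these differences cannot be told apart from time.

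Without lactation, edgeR called 0 of the 38 genes between time points with both cutoffs (1.46% of all genes), 2 on adjusted p alone (5.05%) and 3 at an unadjusted p under 0.05 (21.2%). With lactation it called 0 (0.774%), 1 (2.01%) and 2 (18.1%), and DESeq2 on all 12 libraries called 0 with both cutoffs without lactation (1.54%) and 0 with it (1.24%). Ackr2, which removes inflammatory CC chemokines, came after Ackr3 with lactation, and after Ackr3 and Cxcl14 without it, by p. It was at 1.39, 2.18 and 2.93 normalized CPM in 1wk SBI against 4.20, 2.14 and 2.56 in 1wk SBI + Lac, then 2.79, 4.09 and 3.65 in 3wk SBI against 5.14, 6.44 and 3.85 in 3wk SBI + Lac. The groups overlapped in both comparisons, with log2 fold changes of 0.72 (SE 0.31, edgeR adjusted p = 0.196) without and 0.83 (SE 0.31, adjusted p = 0.167) with lactation. Ackr4, which takes up Ccl19 and Ccl21, stayed between 3.56 and 4.88 in every library, and Ackr1, the venular receptor that carries chemokines across endothelium, between 2.70 and 4.94.

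Genes that act with chemokines were followed as 4 further lists. Of 44 tested signal transduction genes, 38 were lower with lactation at 1 week, with no edgeR adjusted p below 0.05, and 35 at 3 weeks (medians -0.29 and -0.26). At 3 weeks 2 fell on adjusted p (2.54% of all genes), both under the fold cutoff. Pik3cd, the leukocyte catalytic subunit of PI3 kinase, was 36.5 ± 3.10 normalized CPM (SD, n = 3) in 3wk SBI against 19.9 ± 2.86 in 3wk SBI + Lac, a log2 fold change of -0.86 (SE 0.13, edgeR adjusted p = 0.00566). Rgs2, a regulator of G protein signaling, had -0.77 (SE 0.15, adjusted p = 0.0174), with an adjusted p of 0.0696 without 3wk SBI + Lac replicate 1 and 0.0795 without replicate 2.

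Of 12 tested chemokine and chemoattractant genes with other names, 7 were lower at 1 week and 10 at 3 weeks. The complement receptor C3ar1 was called at 3 weeks, at 2.58 ± 0.820 normalized CPM in 3wk SBI + Lac against 5.88 ± 2.27 in 3wk SBI (SD, n = 3), with a log2 fold change of -1.17 (SE 0.28, edgeR adjusted p = 0.0423). That call was lost without any one of 5 of the 6 libraries (adjusted p from 0.0568 to 0.222) and held without 3wk SBI replicate 1. At 1 week C3ar1 had -1.11 (SE 0.26, adjusted p = 0.0606) and the platelet chemokine Pf4 -0.58 (SE 0.15, adjusted p = 0.0748). Of 18 genes for chemokine presentation on heparan sulfate and endothelium, 14 and 12 were lower at 1 and 3 weeks, and none passed an adjusted p of 0.05, the smallest being 0.0679 for Vcam1 at 1 week (-1.11, SE 0.27) and 0.0596 for the heparan sulfate proteoglycan Gpc4 at 3 weeks (-0.56, SE 0.15). Of 15 interferon gamma and NF-kappaB regulators, 11 and 12 were lower and none passed, the nearest being Nfkbia, an inhibitor of NF-kappaB, at 0.63 (SE 0.15, adjusted p = 0.0614) at 1 week.

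DESeq2 on all 12 libraries put more genes of these lists below an adjusted p of 0.05, where 4.09% of all genes passed at 1 week and 5.4% at 3 weeks. The 4 lists held 44 signal transduction, 15 chemoattractant, 18 presentation and 18 regulator genes in this fit. At 1 week it called C3ar1 (adjusted p = 0.00656), Vcam1 (0.00553), the heparan sulfate proteoglycan Sdc1 (0.0257), Rgs18 (0.0125) and the myeloid kinase Fgr (0.0345) with both cutoffs. All were lower with lactation, and 0.94% of all genes were called. The study named Vcam1 from these same samples, so its direction here is not independent evidence. Pf4 (0.0189), Nfkbia (0.0103) and the adaptor Pxn (0.0483) passed on adjusted p alone, Nfkbia and Pxn being higher. At 3 weeks it called C3ar1 and Rgs18 (0.0322), both lower, where 1.21% of all genes were called. Pik3cd, Rgs2, Gpc4 (0.0171) and Sdc4 (0.0407) passed on adjusted p alone, Sdc4 being higher.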

How the data were processed

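Poly(A) RNA of rat pubocaudalis was sequenced from stranded libraries, 3 pools of 2 rats in each of 4 groups. The authors deposited gene counts in 1 table of 30206 genes, not normalized for library size. The 1-week columns deposited hold whole counts, while 26.6% to 44.0% of the 3-week values carry decimals. The values the authors deposited for 3 weeks are therefore expected counts (estimated counts), made by a step that is not given in the sources used here. They were rounded for the tests, although whole counts had been assumed in planning. The submitters' processing notes name Salmon, and its version, role and genome build are not given in the sources used here.

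Counts were scaled by TMM and fitted in edgeR 4.0.16 (R 4.3.3) by quasi-likelihood with robust dispersion over all 12 libraries, with 14599 genes kept by filterByExpr and Benjamini-Hochberg adjustment over all of them. SEs were derived from fold changes and F statistics. The cutoffs were an adjusted p of 0.05 and an absolute log2 fold change of 1. Total counts of 10082734 to 75634391 bound precision, and limits from 3 counts cover counting error only. Libraries of a group differed by more than sampling noise and were kept as separate samples. P-values measure the spread between pools.

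The family, the role groups, and the pathway and marker lists were chosen with earlier results of these data known. Genes were named when past both cutoffs, for the 5 smallest p per lactation contrast and their difference, the 3 smallest per time contrast, the 4 the study names, the 5 ligands and 5 receptors with the largest mean level, partners of these in their role group and, per pathway list, up to 4 with the smallest p. Levels were not compared between genes, as no lengths were used. Alternatives were RLE and upper-quartile scaling, DESeq2 1.42.0 (the study's tool), other count filters, only the libraries compared, a replicate block, thinning to equal depth, no fold cutoff and each library left out. The fit was tested on simulated data. The values of 1 gene of the family are not reported here, though counts and medians over the family include it. Shares of all genes called by DESeq2 are of those given a p, also where the adjusted p was NA (not called). DESeq2 gave a p to 47 genes of the family on all 12 libraries, and to 46 or 47 on only the libraries compared.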

Additional observations from a re-analysis of the deposited data

How the results depend on the processing

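The number of genes of the family called with both cutoffs was 0 in each comparison and 0 under most alternatives. At 1 week DESeq2 on only the libraries compared called 4 (1.72% of all genes). At 3 weeks thinning to equal depth called 1 (Ccl9, with 0.638% of all genes), as did leaving out 3wk SBI + Lac replicate 2 (0.378%), so that leaving out libraries gave 0 to 1. For 3 weeks against 1 week without lactation, dropping the fold cutoff gave 2 (Ackr3 and Cxcl14, with 5.05%), and leaving out libraries gave 0 to 2, the 2 being Ccr9 and Cxcr6 without 3wk SBI replicate 3 (3.75%). With lactation, dropping the fold cutoff gave 1 (Ackr3, with 2.01%). The fit with a replicate block called 0 in all 5 comparisons, and Cxcl14 between time points without lactation then had an adjusted p of 0.0592 and C3ar1 with lactation at 3 weeks one of 0.0963. Same-numbered pools of the same week did not deviate together (correlations -0.0911 to -0.269 over genes). With 3 pools per group this cannot exclude pairing or a shared batch, and pools of different weeks were not compared. Over all genes the block lowered the calls from 37 to 8 at 1 week and from 108 to 64 at 3 weeks. Those of DESeq2 on all 12 libraries were 188 and 242, and DESeq2 on only the libraries compared called 332 and 175. The causes were not tested. No called value changed sign. Uncalled values changed sign under some alternative for 7 genes at 1 week, 13 at 3 weeks, 21 in the difference between them, and 17 and 20 between time points without and with lactation. Depth limits genes below about 0.330 normalized CPM, which 3wk SBI + Lac replicate 3 could miss. The limit was 0.322 in 3wk SBI replicate 1, the shallowest pool.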
